A study of Bos taurus with 6 samples.

Results

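The genes described here act in the interferon response and in antigen presentation on major histocompatibility complex (MHC) class I. They were a list of 41 symbols, of which 39 had a probe on the array among 15229 genes in all, while DDX58 and DHX58 were not listed in the platform annotation and were dropped. Each gene was read by the probe with the highest mean intensity over 6 arrays. The symbols were chosen by function with log2 ratios of FGF18 over control from these same arrays already known, NLRC5 among them, so the ratios below are a description and support nothing by themselves. The 39 genes fall into 8 of antigen presentation, 20 that interferon induces, 6 transcription factors of the pathway, and 5 interferon receptor chains and their kinase.

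Cells given 10 ng/ml of FGF18, a fibroblast growth factor, for 2 h were set against untreated control cells. Both were bovine granulosa cells, the somatic cells that line the follicle around the oocyte, taken from follicles of 2 to 6 mm of Holstein crossbred cattle at an abattoir. All were cultured for 5 days without serum, with FSH and insulin at 10 ng/ml each. The RNA of both conditions was hybridised together on 6 two-colour arrays, as 3 biological replicates with 2 arrays each in opposite dye orientation. The labels do not say how many animals went into a replicate, and the source name of the control ends in T0 without saying whether its cells were taken before or after the 2 h.

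Interferons bind paired receptor chains on the cell surface, IFNAR1 with IFNAR2 for type I and IFNGR1 with IFNGR2 for interferon gamma. Janus kinases then activate STAT factors, which with partners of the IRF family switch on antiviral genes and the machinery that cuts, transports and loads peptides on MHC class I. Nearly all nucleated cells keep this machinery running at a base level, and interferon raises it.

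Between 45.7% and 73.5% of probes per channel lay above background, the cut being 2 SD over the average of the 153 negative control spots in that channel. The lowest was the FGF18 channel of the control-in-Cy5 array of replicate 3, and the next lowest channel had 54.9%. Of the 39 genes, 35 were detected, which means above background on 3 or more arrays of either condition, and 28 passed on every array in both conditions, while IFI44 and OAS2 passed on none. Granulosa markers were read brightly for GATA4, INHBA, CYP11A1 and INHA, but FOXL2 and HSD17B1 were above background on no array, and CYP19A1 was above it on 2 FGF18 and 4 untreated channels. Leukocyte markers were detected for 10 of 13 genes, with PTPRC, CD53, CD68 and TYROBP above background on every array and CSF1R, ITGAM and CD79A on none. Stroma markers such as LUM and PDGFRA were bright, while CYP17A1, the androgen-forming enzyme of theca cells, passed in 3 FGF18 and 4 untreated channels. In such mixed RNA, fewer cells of a type and less RNA per cell cannot be told apart. The 2 arrays of a replicate correlated across the 35 detected genes at 0.93, 0.89 and 0.79 in replicates 1, 2 and 3, where all 12200 detected genes had 0.75, 0.83 and 0.41. Between replicates the correlation over the same genes was -0.18 for 1 and 2, 0.38 for 1 and 3, and 0.27 for 2 and 3, where all detected genes had -0.26, -0.07 and 0.40.

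The question of the design is which transcripts differ after 2 h of FGF18. Ratios are log2 of FGF18 over untreated, given as mean ± SD of 3 replicates, and levels are log2 intensity after normalization within and between arrays. No gene of the list passed limma's test with Benjamini-Hochberg adjustment over all genes, 0 of 39, where the share over all genes was 0%. The smallest adjusted p was 0.986, both in the list and among all 15229 genes, and 5 of 39 had an unadjusted p under 0.05 against 3.49% of all genes. All values below are therefore levels and ratios, not changes. Of the 39 genes, 9 were lower in all 3 replicates and 2 were higher, where 12% of all genes were lower and 12% higher. On all 6 arrays 5 were lower and 1 was higher, against 2.73% and 4.47% of all genes. FGF18 levels lay below all untreated levels for 4 genes, NLRC5, PSMB9, PARP12 and IRF1, and above them for 0, where 3.01% and 2.76% of all genes did. Because the list was made with these ratios in view, nothing is read from these shares.

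**Figure D1:**
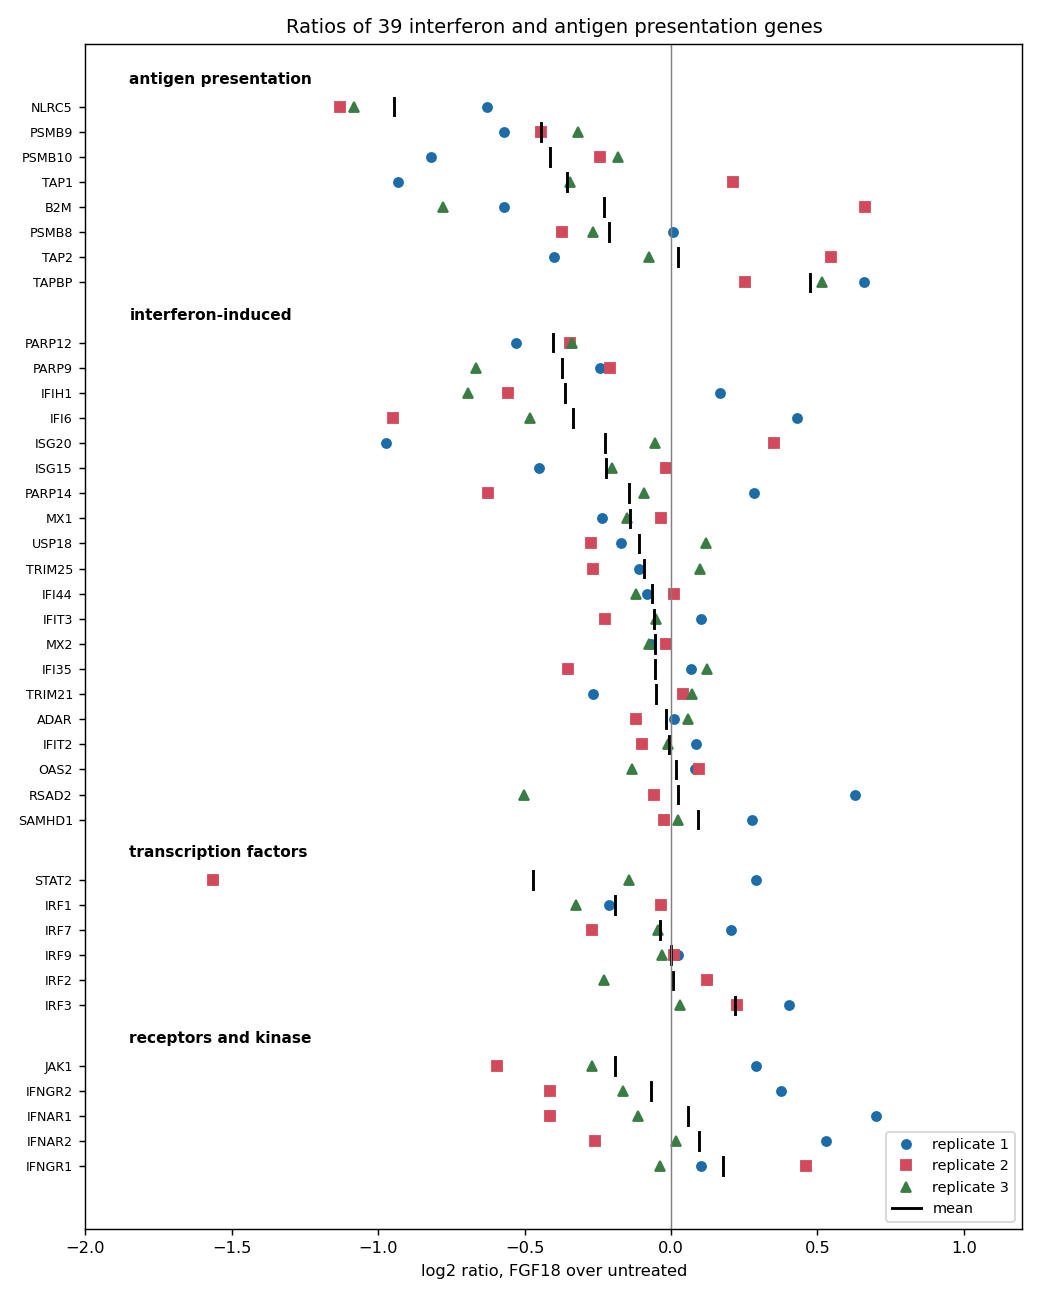
Log2 ratio of FGF18 over untreated (x axis) for each of the 39 genes (rows, by role and mean ratio), with 1 point per replicate, each the mean of 2 arrays, and a bar at the mean of 3. NLRC5, PSMB9 and PSMB10 have all 3 points left of 0 and TAPBP has all 3 to the right, while STAT2, TAP1, B2M and ISG20 spread across 0.

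Among the 8 antigen presentation genes, 3 were lower in all replicates, 1 was higher and 4 had mixed signs, and none passed the test. Of all genes, 12% were lower and 12% higher, and nothing is read from this count either. NLRC5, the transactivator that switches on MHC class I genes, had levels of 7.93, 7.19 and 7.64 in FGF18-treated cells and 8.56, 8.32 and 8.72 in untreated cells, in replicates 1, 2 and 3. Every FGF18 level lay below every untreated level. Its ratios were -0.63, -1.13 and -1.08, or -0.95 ± 0.28, a level 1.93-fold lower, which placed it at rank 132 from the lowest of 15229 genes. It was read by 1 probe on this array, so no other probe could be set beside it.

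The inducible catalytic subunits of the immunoproteasome, which replace constitutive subunits and alter the peptides that the proteasome releases, are encoded by PSMB8, PSMB9 and PSMB10. PSMB9 had levels of 8.39, 8.39 and 8.43 with FGF18, against 8.96, 8.83 and 8.75 without it. These groups did not overlap, and the FGF18 levels were almost equal to each other. The ratio was -0.44 ± 0.13, and all 6 arrays were below 0. PSMB10 had 10.84, 12.07 and 11.40 with FGF18 and 11.66, 12.31 and 11.58 in untreated cells, a ratio of -0.41 ± 0.35. Its groups overlapped because replicate 2 was brighter in both conditions, and each FGF18 level was below its own untreated partner. The ratio was -0.82 in replicate 1, -0.24 in replicate 2 and -0.18 in replicate 3, and its other probe, also bright, gave -0.21 ± 0.19. PSMB8 had 7.05, 7.07 and 7.43 with FGF18 and 7.04, 7.44 and 7.70 in untreated cells, with a ratio of -0.21 ± 0.20. In replicate 1 the PSMB8 ratio was 0.01, the mean of arrays on opposite sides of 0, whereas replicates 2 and 3 were at -0.37 and -0.27.

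TAP1 and TAP2 form the transporter that carries peptides into the endoplasmic reticulum. TAP1 had levels of 7.70, 7.40 and 7.57 with FGF18, against 8.63, 7.19 and 7.92 in untreated cells. The FGF18 levels lay close together and the untreated levels did not. Its ratios of -0.93, 0.21 and -0.35 averaged -0.36 ± 0.57. TAP2 showed the same arrangement, with 10.46, 10.47 and 10.30 for FGF18 and 10.86, 9.92 and 10.38 in untreated cells. Its ratio was 0.02 ± 0.48, and its other, dim probe gave -0.03 ± 0.06.

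TAPBP encodes tapasin, which bridges class I molecules to the transporter, and stood on the other side of 0 from most of the group. Its levels were 10.84, 12.45 and 12.08 with FGF18 and 10.18, 12.20 and 11.57 in untreated cells. In each replicate the FGF18 level was the higher one, at ratios of 0.66, 0.25 and 0.52, or 0.48 ± 0.21, and all 6 arrays were above 0. The replicates differed from each other far more than the conditions, so the groups overlapped. B2M, the light chain shared by all class I molecules, had 14.35, 14.53 and 14.14 for FGF18 and 14.92, 13.87 and 14.92 in untreated cells. Its ratios of -0.57, 0.66 and -0.78 had no common direction and averaged -0.23 ± 0.78. The other probe of B2M was dim and gave 0.02 ± 0.03.

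**Figure D2:**
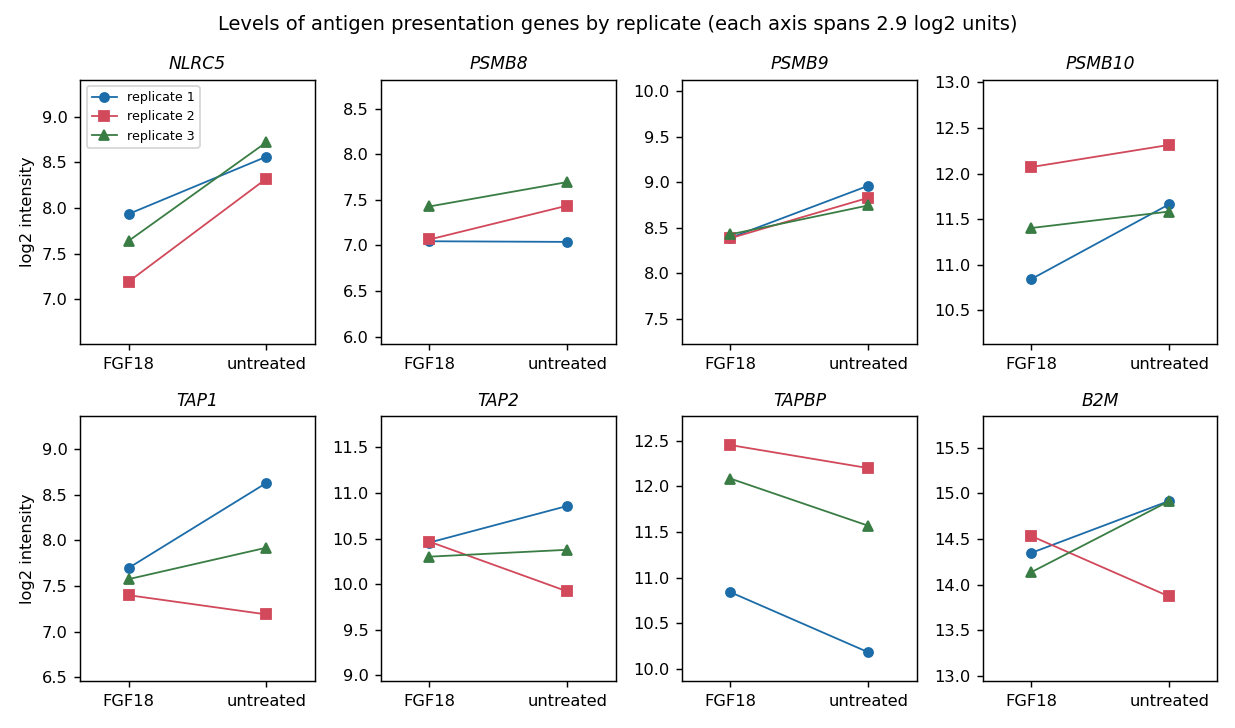
Log2 intensity (y axis, 2.9 units in each panel) of the 8 antigen presentation genes in FGF18-treated and untreated cells, with lines joining the conditions of a replicate. NLRC5 and PSMB9 are lower with FGF18 in every replicate without overlap, TAPBP is higher in every replicate at levels that differ between replicates, and TAP1, TAP2 and B2M fan out on the untreated side.

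In the reference assembly, PSMB8, TAP1 and PSMB9 are direct neighbours, and TAP2 is separated from PSMB8 by 1 gene. Along this order from TAP2 to PSMB9, the mean ratios were 0.02, -0.21, -0.36 and -0.44, but no replicate alone fell steadily along it. The ratios were -0.40, 0.01, -0.93 and -0.57 in replicate 1 and 0.55, -0.37, 0.21 and -0.44 in replicate 2. In replicate 3 they were -0.08, -0.27, -0.35 and -0.32.

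The 20 interferon-induced genes gave 5 that were lower in all replicates, 0 that were higher and 15 with mixed signs. Of all genes, 12% were lower and 12% higher, and nothing is read from this count, since the genes were chosen with these ratios known. PARP12, an ADP-ribosyltransferase with antiviral activity, had levels of 11.40, 11.09 and 11.27 with FGF18 and 11.93, 11.44 and 11.61 in untreated cells. Its groups did not overlap, the ratios of -0.53, -0.34 and -0.34 averaged -0.40 ± 0.11, and all 6 arrays were below 0. PARP9, which works with the ubiquitin ligase DTX3L, had 10.12, 9.48 and 9.74 with FGF18 against 10.36, 9.69 and 10.41 without. Its ratio was -0.37 ± 0.25, lower on all 6 arrays, though replicate 3 (-0.67) was well beyond replicates 1 (-0.24) and 2 (-0.21). PARP14, of the same family and on the other side of DTX3L in the reference assembly, had 0.28, -0.63 and -0.09 and so no common direction (-0.14 ± 0.46).

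ISG15, the ubiquitin-like protein that is attached to other proteins in the response, had 7.84, 8.52 and 7.97 with FGF18 and 8.29, 8.54 and 8.17 in untreated cells. All 3 ratios were below 0, from -0.45 in replicate 1 to -0.02 in replicate 2, and averaged -0.22 ± 0.22. A further probe of ISG15 gave -0.18 ± 0.12, close to the first. USP18, which removes ISG15 and restrains the receptor, had ratios of -0.17, -0.27 and 0.12, or -0.11 ± 0.20. MX1, a dynamin-like antiviral GTPase, had -0.24, -0.04 and -0.15, or -0.14 ± 0.10. Its signal was low, passing in 5 FGF18 and 6 untreated channels.

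Among sensors and their helpers, IFIH1, the cytosolic RNA sensor also called MDA5, had levels of 9.04, 8.05 and 8.53 with FGF18 and 8.87, 8.61 and 9.22 in untreated cells. Replicate 1 was slightly above 0 (0.17), and replicates 2 and 3 were below it (-0.56 and -0.69), for a mean of -0.36 ± 0.46. TRIM25, a ubiquitin ligase that acts on RNA sensing, had -0.11, -0.27 and 0.10, and TRIM21, an antibody receptor inside the cell, had -0.27, 0.04 and 0.07. Neither kept 1 sign, and their means were -0.09 ± 0.18 and -0.05 ± 0.19. ADAR, which edits adenosines in double-stranded RNA, had 0.01, -0.12 and 0.06, a mean of -0.02 ± 0.09.

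IFI6, an interferon-induced membrane protein, had ratios of 0.43, -0.95 and -0.48, a mean of -0.33 ± 0.70. Replicate 1 thus stood opposite to the others, as it did for IFIH1, PARP14 and RSAD2. IFI35 had 0.07, -0.35 and 0.12, and SAMHD1, which degrades the nucleotides that viruses need, had 0.28, -0.02 and 0.02. The antiviral repeat proteins IFIT2 and IFIT3 are direct neighbours and averaged -0.01 ± 0.09 and -0.06 ± 0.16. Their ratios were 0.08, -0.10 and -0.01 for IFIT2 and 0.10, -0.22 and -0.05 for IFIT3.

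The other 5 interferon-induced genes, IFI44, ISG20, MX2, OAS2 and RSAD2, were above background on no more than 4 arrays in either condition, and their means ran from -0.22 to 0.02. ISG20, an exonuclease, had the widest spread of them (-0.97, 0.35 and -0.05), where the untreated level of replicate 1 was 7.69 and those of replicates 2 and 3 were 6.41 and 6.64.

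Of the transcription factors, IRF1, which interferon gamma induces and which drives PSMB9 and TAP1, had levels of 7.05, 7.25 and 7.17 with FGF18 and 7.26, 7.28 and 7.50 in untreated cells. The levels did not overlap but the nearest were 7.25 and 7.26, and the ratios of -0.21, -0.03 and -0.32 averaged -0.19 ± 0.15. IRF3, which switches on interferon genes after viral sensing, was higher in all 3 replicates at 0.40, 0.23 and 0.03, or 0.22 ± 0.19. IRF7, its inducible relative, had 0.20, -0.27 and -0.05. IRF9, a DNA-binding partner of STAT2, had the smallest spread of the list, with 0.02, 0.01 and -0.03 and a mean of 0.00 ± 0.03. IRF2, a repressor that competes with IRF1, was near background and had 0.01 ± 0.20.

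STAT2 had the widest spread of the list, -0.47 ± 0.97. Its levels were 10.10, 10.30 and 10.34 with FGF18 and 9.80, 11.86 and 10.48 in untreated cells. The FGF18 levels were alike, and the untreated cells of replicate 2 stood apart on both of their arrays, at 11.94 and 11.79. The ratio was -1.56 in replicate 2, against 0.29 in replicate 1 and -0.14 in replicate 3, so the mean rests on replicate 2.

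The receptor chains and JAK1, the kinase bound to both receptors, had no member with 1 sign in all replicates. IFNAR1 had levels of 10.32, 10.25 and 10.17 with FGF18 and 9.61, 10.67 and 10.29 in untreated cells, with a ratio of 0.06 ± 0.58. Its further probes gave 1.10, 0.42 and -0.04, and 0.11, 0.15 and 0.09, both above 0 in replicate 2 where the brightest probe was below it. IFNAR2 had 0.53, -0.26 and 0.02 (0.10 ± 0.40), and IFNGR2, which lies next to IFNAR1 in the reference assembly, had 0.37, -0.41 and -0.16 (-0.07 ± 0.40). JAK1 had 0.29, -0.59 and -0.27 (-0.19 ± 0.45), and its other probe, above background on every array, had -0.21, -0.03 and 0.07. By their brightest probes alone, IFNAR1, IFNAR2, IFNGR2 and JAK1 were above 0 in replicate 1 and below 0 in replicate 2. IFNGR1, the ligand-binding chain for interferon gamma, differed from them with 0.10, 0.46 and -0.04 (0.18 ± 0.26).

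Set side by side, antigen presentation genes had a median ratio of -0.57, -0.02 and -0.29 in replicates 1, 2 and 3, and interferon-induced genes had -0.03, -0.11 and -0.08. The mean of the 3 medians was -0.29 ± 0.28 for antigen presentation, -0.07 ± 0.04 for interferon-induced genes and -0.01 ± 0.01 for all 15229 genes. Antigen presentation minus interferon-induced was -0.54, 0.09 and -0.21, or -0.22 ± 0.32. The sign of this difference was not the same in all replicates, and its mean was smaller than its SD. No test is given, since the smallest p that an exact sign-change test of 3 replicates allows is 0.25. Without replicate 1 the difference was -0.06, and the antigen presentation median was -0.15. The number of the 39 genes above 0 was 22 in replicate 1, 12 in replicate 2 and 9 in replicate 3, or 56.4%, 30.8% and 23.1%, where all genes had 49.7%, 47.3% and 50.7%. Transcription factors had medians of 0.16, -0.01 and -0.09, and receptors and kinase had 0.37, -0.41 and -0.11.

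**Figure D3:**
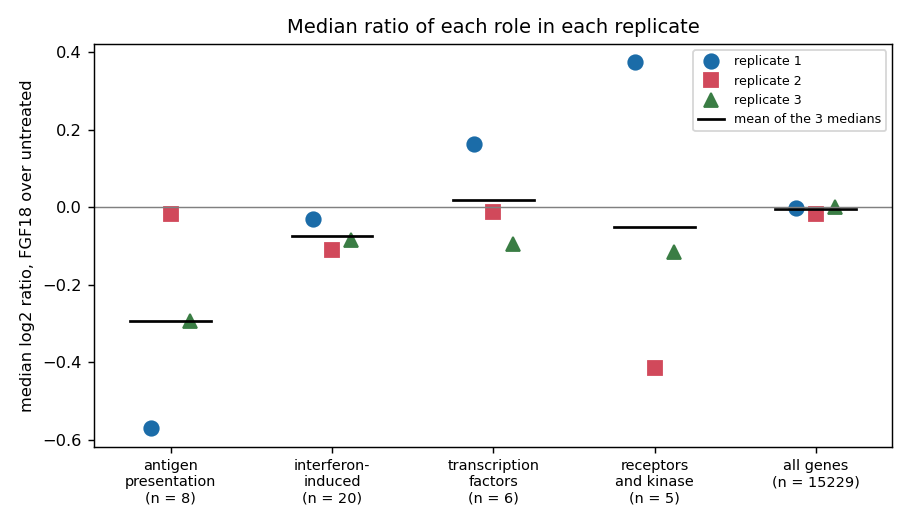
Median log2 ratio of FGF18 over untreated (y axis) in each replicate for the 4 roles and all genes, with a bar at the mean of the 3 medians and the number of genes under each name. Antigen presentation is lowest in replicate 1 at -0.57 and near 0 in replicate 2, receptors run from 0.37 to -0.41, and the medians of interferon-induced genes lie between -0.11 and -0.03.

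Levels in untreated cells alone varied between replicates by more than 1 log2 unit for 9 of 39 genes, where 17.1% of all genes did. TAPBP, IRF7 and TRIM25 shared an order. Untreated TRIM25 was 9.28, 11.05 and 10.32, and untreated IRF7 was 8.92, 10.93 and 10.33, with replicate 1 lowest and replicate 2 highest in both, as for TAPBP. The FGF18-treated cells had the same order, 9.17, 10.79 and 10.42 for TRIM25 and 9.13, 10.66 and 10.29 for IRF7. Thus the replicates differed by up to 2.01 log2 units in untreated IRF7, while its FGF18 ratio was -0.04 ± 0.24. For STAT2, TAP1, TAP2, B2M, ISG20 and IFNAR1, in contrast, the spread lay mainly in untreated cells, whose SD was 1.05 in STAT2 against 0.13 with FGF18 and 0.72 in TAP1 against 0.15 with FGF18. An SD larger in untreated than in FGF18-treated cells was found for 28 of 39 genes (71.8%), near the 67.7% of all genes. Cell preparation and RNA amplification differ along with the replicate here and cannot be told apart.

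**Figure D4:**
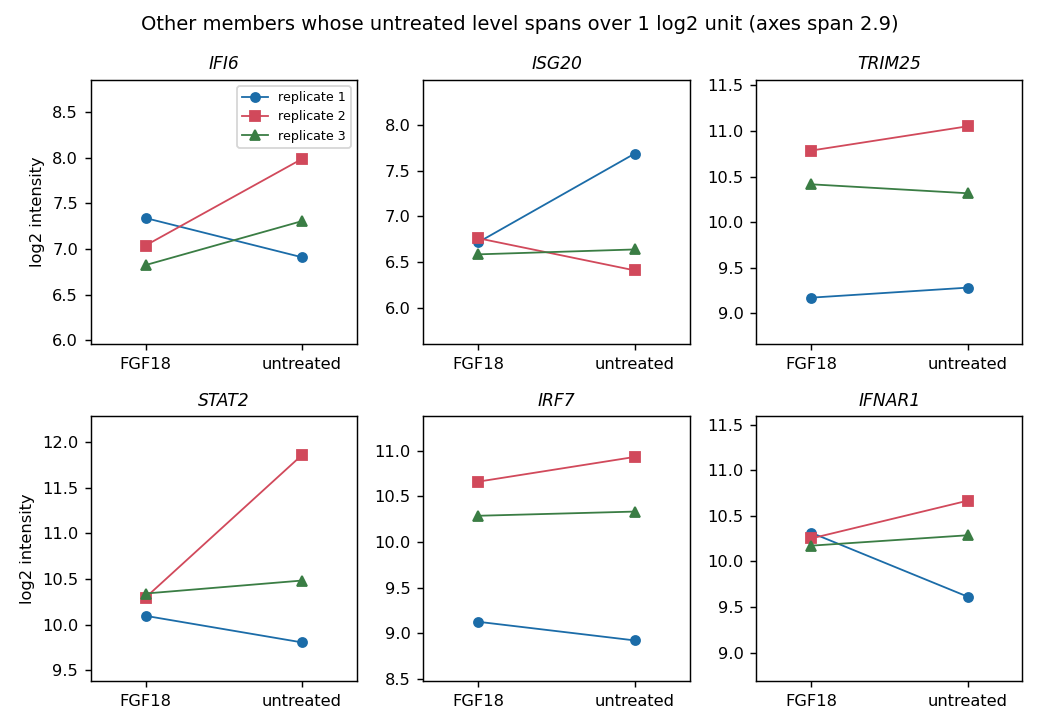
Log2 intensity (y axis, 2.9 units in each panel) in FGF18-treated and untreated cells of the 6 other genes whose untreated level spans more than 1 log2 unit, with lines joining the conditions of a replicate. TRIM25 and IRF7 keep the distance between replicates in both conditions, while STAT2, ISG20 and IFNAR1 are close together with FGF18 and apart in untreated cells.

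Whether a ratio moved with the dye was tested separately, since that difference does not depend on how the genes were chosen. The dye term is the part of a Cy5 over Cy3 ratio that stays when the conditions change dyes. With the 6 arrays taken as independent, 0 of 39 genes passed limma's test at an adjusted p under 0.05 and 0.433% of all genes did. At an unadjusted p under 0.05, 2 of 39 were called, IFI44 and ADAR, against 17.9% of all genes. With the replicate as a block, at a correlation of 0.82 within replicates, 9 of 39 passed, against 29.9% of all genes. These were PSMB8, PSMB10, TAPBP, IFI44, USP18, TRIM25, ADAR, IRF7 and IRF9. NLRC5, PSMB9 and PARP12 were not among them, with dye terms of 0.08, 0.05 and 0.02 and adjusted p-values in limma of 0.138, 0.179 and 0.706 with the block. On the arrays with FGF18 in Cy5 and then on those with FGF18 in Cy3, NLRC5 had -0.87 and -1.03, PSMB9 had -0.39 and -0.50, and PARP12 had -0.39 and -0.42. For PSMB8 the means were -0.07 and -0.35, and for TAPBP 0.61 and 0.34, with FGF18 in Cy5 and in Cy3. TAPBP was above 0 on every array, whereas replicate 1 of PSMB8 had 0.18 with FGF18 in Cy5 and -0.17 with FGF18 in Cy3, so its direction differed between the orientations there. The arrays of each orientation share a number in their deposited names, and dye and whatever that number stands for cannot be told apart.

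**Figure D5:**
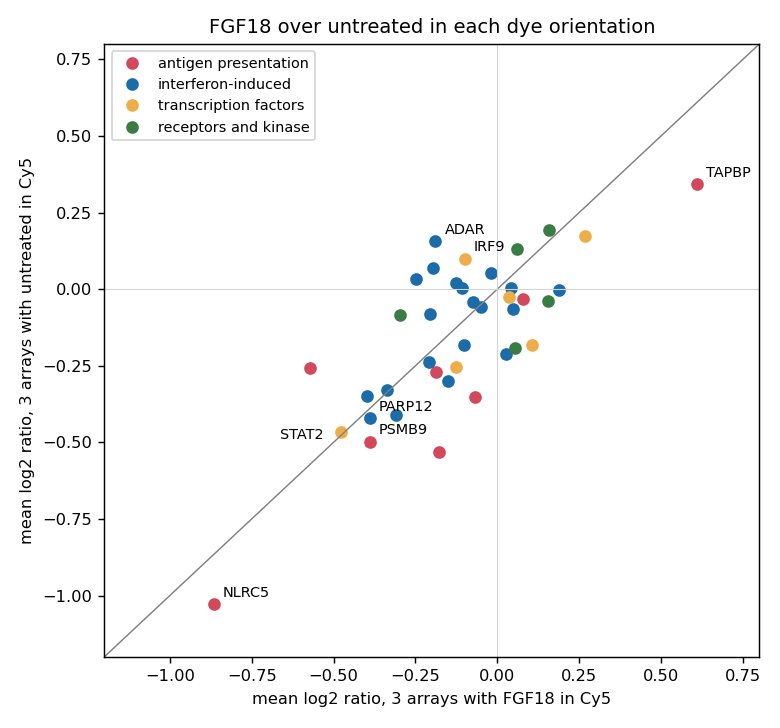
Mean log2 ratio of FGF18 over untreated on the 3 arrays with FGF18 in Cy5 (x axis) against the 3 arrays with the untreated control in Cy5 (y axis) for the 39 genes, coloured by role, with the line of equality. NLRC5 is far below 0 in both, TAPBP above 0 in both, and ADAR and IRF9 lie on opposite sides of 0.

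Further genes of the pathway that were not among the 39 were read from lists by role. Over all genes, 12% were lower and 12% higher in all 3 replicates. The lists were also chosen with earlier results of these data known, so nothing is read from their counts. For class I chains and peptide loading, 17 of 20 listed symbols were on the array, with 2 lower and 1 higher in all replicates and a median of -0.03. Of the brightest, FCGRT, the neonatal Fc receptor, had -0.21 ± 0.17, POMP, a proteasome assembly factor, had -0.11 ± 0.50, and BOLA, listed for bovine class I, had 0.05, -0.62 and -0.61 in replicates 1, 2 and 3 (-0.40 ± 0.38). The class I genes are a family of close copies, which this probe may not separate. For class II presentation, 12 of 16 were on the array, 3 lower and 3 higher, with a median of -0.02. CTSS, the protease that trims the class II chaperone, had 0.29 ± 0.32, CTSH had 0.19 ± 0.16 and IFI30 had -0.16 ± 0.79.

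Of 46 further interferon-induced symbols, 31 were on the array, with a median of -0.13. In all replicates 7 (22.6%) were lower and 0 higher, where 12% of all genes were lower and 12% higher. The number above 0 was 15, 8 and 6 of 31 in replicates 1, 2 and 3, the same order as for the 39 genes. These were 48.4%, 25.8% and 19.4%, where all genes had 49.7%, 47.3% and 50.7%. Both lists were chosen with results known and read on the same arrays, so the shared order supports nothing. The brightest were LGALS3BP (-0.08 ± 0.21), IFIT5 (-0.17 ± 0.29) and IFITM3, an inhibitor of viral entry, which had 1.14 in replicate 1, -0.01 in replicate 2 and -0.12 in replicate 3. For sensing and signalling, 27 of 31 were on the array, 4 lower and 2 higher, with IL10RB at -0.18 ± 0.38, AZI2 at -0.10 ± 0.50 and TYK2, the partner kinase of JAK1, at 0.03 ± 0.08. Of 13 interferon symbols, 6 were on the array and 2 were detected. IFNAC, of a family of close copies, had -0.12 ± 0.37 and IFNW1 had -0.04 ± 0.03, while IFNK, IFNG and IFNT were above background on no array. No gene of these 5 lists passed limma's adjusted test, 0 of 93, against 0% of all genes.

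Leukocyte markers did not share 1 direction, with 5 of 13 higher and 1 lower in all replicates and a median of 0.07. Of all genes, 12% were higher and 12% lower. PTPRC, the common leukocyte antigen, had 0.42, -1.46 and -0.91 in replicates 1, 2 and 3, and CD163, a macrophage receptor, had 0.22, 0.98 and 0.44. Their summed level, as log2 of the sum over 13 genes, was 12.50, 12.81 and 12.41 with FGF18 and 12.29, 13.02 and 12.59 in untreated cells, in replicates 1, 2 and 3. It was thus higher with FGF18 in replicate 1 and lower in replicates 2 and 3, while the median ratio of the 13 genes was 0.13, 0.05 and 0.03. The sum adds linear intensities of different probes, so bright probes weigh most in it. For the 10 granulosa markers it was 15.54, 15.96 and 15.29 with FGF18 and 16.02, 15.71 and 15.07 in untreated cells. That sum was lower with FGF18 in replicate 1 and higher in replicates 2 and 3. The part of either marker list in the ratios of the 39 genes was not tested. A group of 93 genes was lower by 2-fold or more on both arrays in replicates 2 and 3, and all 93 were above 0 in replicate 1. Their median ratios were 0.39, -2.68 and -1.19 in replicates 1, 2 and 3, and 0 of the 39 genes were in this group. The group is only 93 of 15229 genes, so hardly any of 39 genes would fall in it, and nothing is read from this.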

How the data were processed

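Total RNA of bovine granulosa cells was amplified in 2 rounds with T7 polymerase and labelled with Cy3 and Cy5, per the labels' protocols. The deposited array files hold spot and local background intensity at 532 nm (Cy3) and 635 nm (Cy5), not normalized, per the file headers. The authors' deposited log2 ratios correlated at 1.00 with plainly subtracted, loess-normalized ratios of every array, ran FGF18 over control, and were used as an alternative; the labels used here do not say how they were made. Intensities were corrected with normexp (offset 50) and loess (span 0.3, control spots at weight 0) in limma 3.58.1 under R 4.3.3, turned to FGF18 over control, and averaged over the 2 arrays of a replicate. Levels are from Aquantile normalization. Of 43794 gene probes, 21790 had 1 named gene, in 15229 genes. FGF18 over control was fitted with lmFit and eBayes over 3 replicates, and the dye term over 6 arrays, each with Benjamini-Hochberg adjustment over 15229 genes. Both fits were first run on simulated data with changes of 3 log2 units. Mean ratios of all genes ran only from -1.43 to 1.12, so that run does not show whether changes of the sizes seen here would be called. The 6 arrays limit the precision.

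The arrays of the same title number deviated together (correlations of 0.94, 0.95 and 0.83 over 12200 detected genes, relative to the mean of their orientation), so the number was taken to pair them. The members, gene lists and marker lists were chosen with earlier results of these data known. Every antigen presentation gene is named with its replicates, as are genes of other roles above background on at least 4 arrays in both conditions, and the brightest 3 of each further list. Gene order is from RefSeq on ARS-UCD2.0. Motifs in promoters were not searched, and no sequence is shown.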

Additional observations from a re-analysis of the deposited data

Results flagged for a closer look

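ADAR and IRF9 had ratios of one sign on all 3 arrays with FGF18 in Cy5 and of the opposite sign on all 3 with FGF18 in Cy3. The dye term of ADAR was -0.172441, with means of -0.19 with FGF18 in Cy5 and 0.16 with FGF18 in Cy3. Its adjusted p in limma was 0.184 with the arrays as independent and 0.0112 with the replicate as a block. The dye term of IRF9 was -0.0993304, with means of -0.10 and 0.10 in the same order, and adjusted p-values in limma of 0.298 and 0.0404. For both genes the mean over the orientations was near 0, and the cause was not tested.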

How the results depend on the processing

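Under 16 alternatives, of which 1 was chosen after seeing the data (without the control-in-Cy5 array of replicate 3), limma called 0 genes for FGF18 over control. The antigen presentation median stayed below 0 throughout, from -0.43 without replicate 2 to -0.15 without replicate 1, and so did that of interferon-induced genes, from -0.11 to -0.04. Some settings could not move the antigen presentation median. Those with a dye term, replicate block or intensity trend alter no ratio, and all 8 genes pass both filters on dim genes. The difference between the roles ran from -0.37 without replicate 2 to -0.06 without replicate 1. It was -0.10 with FGF18 in Cy5 alone and -0.32 with the control in Cy5 alone. The ratio of NLRC5 was negative in all settings (-1.11 to -0.86). So were, in all settings that kept them, those of PSMB8, PSMB9, PSMB10, TAP1, PARP9, PARP12, IFI6, IFIH1, ISG15, MX1 and IRF1. Those of TAPBP (0.34 to 0.61), IRF3 and IFNGR1 were positive in all settings. PSMB8, TAP1, IFI6, IFIH1 and IFNGR1 nevertheless had mixed signs between replicates. By contrast, 13 genes changed sign without replicate 2, 9 without replicate 1 and 9 with the control in Cy5 alone. The count of dye-dependent genes, 66, was the least stable. It was 361 with an offset of 16, 110 with plain subtraction, 111 with the mean of all probes, 1144 with an intensity trend and robust prior, and 4556 with the replicate block, against 0 with median centring, 0 under either filter on dim genes, and 0 to 0 when a replicate was left out, and the cause was not tested. The replicate block changed no other call. The alternative on promoter motifs was not run. Signal over background limits IFI44, OAS2, MX2, ISG20, RSAD2 and IRF2.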

Other observations

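Of the further interferon-induced and signalling genes, 4 are named here after their values were seen. Their ratios were above 0 in replicate 1 and far below 0 in replicates 2 and 3. The signs alone do not set them apart, since IFITM3 had the same signs with ratios near 0 in replicates 2 and 3. How many genes of these lists or of all genes had these signs was not counted, so nothing is read from the choice. GBP5, a guanylate-binding protein, had ratios of 0.25, -2.22 and -1.72 in replicates 1, 2 and 3. CXCL10, a T cell chemokine, had 0.90, -1.08 and -1.83, and IDO1, which breaks down tryptophan, had 0.14, -0.77 and -1.90. SOCS1, a feedback inhibitor of Janus kinases, had 0.32, -2.24 and -1.07. None passed the adjusted test. Among related genes, GBP6 had the same signs at a small size, with 0.06, -0.18 and -0.08. This order was not shared by GBP4, near background, at -0.02, 0.14 and -0.53, nor by LAP3 at -0.05, 1.03 and -0.25. The leukocyte marker PTPRC had 0.42, -1.46 and -0.91, but of the 13 leukocyte markers 10, 9 and 8 were above 0 in replicates 1, 2 and 3. All genes had 49.7%, 47.3% and 50.7% above 0. In all replicates 5 of the 13 were higher and 1 lower, where 12% of all genes were higher and 12% lower. The part of leukocyte markers in these ratios was not tested. GBP5 was among the 93 genes with this profile and was the only one of the 93 further pathway genes there.

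IRF8, EIF2AK2 and RTP4, likewise named after their values were seen, were below 0 in all 3 replicates. In all replicates 7 of 31 further interferon-induced genes were lower and 0 higher, and 4 of 27 for sensing and signalling were lower and 2 higher. Of all genes, 12% were lower and 12% higher. None of these genes passed limma's adjusted test, so nothing is read from the 3 named. IRF8, a transcription factor of immune cells, had -0.16, -0.71 and -0.72, and EIF2AK2, the kinase PKR that halts translation on double-stranded RNA, had -0.88, -0.30 and -0.18. RTP4, an interferon-induced chaperone, had -0.04, -1.10 and -0.81.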
